A study of Mus musculus with 6 samples.

Results

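The genes described here are 52 genes of the endoplasmic reticulum (ER) folding machinery and of the integrated stress response, measured by RNA sequencing in smooth muscle cells of the mouse pulmonary artery (mPASMCs). They were chosen by name for their function from 55487 rows of gene counts. No measured value entered the rule, but earlier results of these data were known when it was made. All 52 were found, 50 by symbol and 2, *Ero1a* and *Ero1b*, under the older symbols Ero1l and Ero1lb. Of these, 51 were among the 14531 genes with enough reads to be tested, and *Derl3* was not. The comparison was between mPASMCs that received a small interfering RNA against the long non-coding RNA *Snhg18* (si-Snhg18, 3 libraries) and mPASMCs that received a negative control siRNA (si-NC, 3 libraries). Both groups were cultured cells of one commercial source that had been transfected with a siRNA in lipid, and the mouse strain, sex and age, the oxygen level and the time between transfection and RNA collection were not given in the sources used here. The labels number the libraries 1 to 3 in each group without saying whether they came from separate cultures, so that the p-values below measure only the spread between these libraries, which may be technical. The study asked what follows in these cells when *Snhg18* is lowered.

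Counted reads ran from 18097718 to 25988746 per library. A floor of 3 reads was therefore worth 0.115 to 0.164 CPM (read counts scaled to library size and composition), and the floor covers counting error only. *Snhg18*, the targeted gene, was at 23.5, 22.4 and 22.2 CPM in si-NC libraries 1, 2 and 3 and at 10.6, 11.2 and 9.97 CPM in the si-Snhg18 libraries (log2 fold change -1.10, edgeR adjusted p = 0.00727). All 7 smooth muscle markers examined were expressed, with a summed level of 1748 to 1895 CPM in si-NC and 1200 to 1850 CPM in si-Snhg18, and 1 of them, *Tagln*, fell with edgeR and limma-voom (3 were lower with DESeq2 and at an unadjusted p under 0.05). The summed level of 5 fibroblast markers was 2264 to 2957 CPM in si-NC and 1375 to 2215 CPM in si-Snhg18, groups that did not overlap, although none of the 5 passed the test with edgeR, DESeq2 or limma-voom (1 at an unadjusted p under 0.05, and 2 lower when the replicate number was a term of the fit). *Col1a1* (mean 1977 CPM in si-NC and 1302 CPM in si-Snhg18, with overlapping groups) and *Pdgfra* (476.6 and 375.5 CPM) made up most of the fibroblast sum. *Dcn* was at a mean of 42.8 and 44.7 CPM, and the groups of *Lum* and *Tcf21*, both scarce, overlapped. With the replicate term 4 of the smooth muscle markers were lower. The summed level of 7 endothelial markers was 12.4 to 14.0 CPM in si-NC and 13.3 to 15.4 CPM in si-Snhg18, that of 7 leukocyte markers 9.07 to 12.0 and 8.92 to 14.6 CPM, and that of 5 epithelial markers 7.25 to 22.7 and 1.19 to 7.42 CPM. *Krt18* made up most of the epithelial sum (mean 12.1 CPM in si-NC and 3.50 CPM in si-Snhg18, with overlapping groups). *Tie1*, *Cldn5*, *Itgam*, *Cd3e*, *Cd79a*, *Epcam*, *Cdh1* and *Sftpc* among these markers were at 3 reads or fewer. The part of these marker levels in the results below was not tested. In cultures measured in bulk, fewer cells of a kind and less RNA per cell cannot be told apart.

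The ER folds secreted and membrane proteins. Chaperones such as BiP and GRP94 hold unfolded chains, calnexin and calreticulin bind those that carry sugars, protein disulfide isomerases form and shuffle disulfide bonds, and chains that fail to fold are sent out for degradation. When unfolded protein builds up, the sensors IRE1, ATF6 and PERK start the unfolded protein response, in which ATF6 and XBP1 raise the transcription of chaperone and degradation genes. PERK, GCN2 and related kinases phosphorylate eIF2, which lowers general translation while ATF4 is translated, and ATF4 drives genes of amino acid supply, redox balance and feedback. Smooth muscle cells of the vessel wall secrete collagen and other matrix proteins and depend on this machinery.

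The best known DNA element of the chaperone genes is the ER stress response element (ERSE), spelled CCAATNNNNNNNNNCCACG, and that of the ATF4 targets is the CARE element, spelled TGATGNAA. Both were searched on both strands of RefSeq promoter windows of mouse build GRCm38.p6, from 250 bases before to 50 bases after the annotated start, which were at hand for 45 of the 52 genes. The following windows, each written 5′ to 3′ along its gene with the element in capitals, are shown because 6 of the genes that fell carry an ERSE. An element on the strand opposite to the gene reads as CGTGGNNNNNNNNNATTGG.
Hspa5 (chr2:34772020-34772048, plus strand): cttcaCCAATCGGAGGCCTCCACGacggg
Hsp90b1, upstream element (chr10:86705618-86705676, minus strand): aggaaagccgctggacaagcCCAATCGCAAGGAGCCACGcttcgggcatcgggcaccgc
Hsp90b1, downstream element (chr10:86705513-86705571, minus strand): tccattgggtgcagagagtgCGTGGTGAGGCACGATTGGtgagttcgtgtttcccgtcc
Calr (chr8:84847055-84847113, minus strand): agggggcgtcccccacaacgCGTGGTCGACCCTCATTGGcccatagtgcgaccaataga
Canx (chr11:50325780-50325838, minus strand): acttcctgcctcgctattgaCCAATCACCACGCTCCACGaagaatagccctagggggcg
Dnajc3 (chr14:118937807-118937865, plus strand): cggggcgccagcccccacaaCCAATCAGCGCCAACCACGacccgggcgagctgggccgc
Creld2 (chr15:88819500-88819558, plus strand): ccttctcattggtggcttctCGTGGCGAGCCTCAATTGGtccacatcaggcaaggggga

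A second set shows the CARE element in 4 genes of the ATF4 branch, none of which passed the test without the replicate term. On the opposite strand this element reads as TTNCATCA.
Asns (chr6:7693220-7693237, minus strand): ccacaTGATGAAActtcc
Atf3 (chr1:191183416-191183463, minus strand): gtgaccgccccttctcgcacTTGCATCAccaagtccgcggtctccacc
Chac1 (chr2:119351029-119351076, plus strand): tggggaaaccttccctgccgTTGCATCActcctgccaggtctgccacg
Slc7a11 (chr3:50443652-50443699, minus strand): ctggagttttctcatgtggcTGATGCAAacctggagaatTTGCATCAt
The window of *Slc7a11* holds the element on each strand. The windows of *Hspa5* and *Asns* lie within the first exon of a GENCODE transcript that starts further upstream than the RefSeq start, and the others lie outside annotated exons. A match is a description of these letters and not evidence that a factor binds there.

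Most ER chaperone genes were lower in si-Snhg18 cells, while the stress sensors and most of the ATF4 branch did not pass the test. Of the 51 tested genes, 14 fell and 0 rose (edgeR's quasi-likelihood test, Benjamini-Hochberg adjusted p under 0.05), where 3.71% of all tested genes fell, 3.65% rose and 7.36% changed in either direction. At an unadjusted p under 0.05 there were 20 lower and 2 higher genes among the 51, beside 1755 lower and 1858 higher genes, 24.9%, of the 14531. DESeq2 called 17 lower and 1 higher, beside 1837 of 25015 genes in either direction. Limma-voom called 15 lower and 0 higher, beside 1036 of 14531 genes in either direction. The 25015 are all genes with any read, without the read filter behind the 14531, so that the 2 shares are not alike. DESeq2 can leave genes of low count without an adjusted p, so that fewer than 25015 may have been open to a call. Of the 14 genes that fell, 12 belong to the 26 tested genes of folding and degradation and 2 to the 25 of stress signalling and the ATF4 branch. The median log2 fold change was -0.35 in the former and 0.02 in the latter, beside 0.01 over all genes. The 3 si-Snhg18 libraries all lay below the 3 si-NC libraries for 24 of the 51 genes and all above for 2, where 15.5% and 15.4% of all tested genes did so. With the replicate number as a term of the fit, 22 of the 51 fell and 4 rose (13.6% of all tested genes in each direction, 27.2% in either). The counts given below for single groups and lists stand beside these same shares of all tested genes. Leaving out si-NC library 1, si-NC library 3 or si-Snhg18 library 3 left 0 of the 51 called, and 0 of all genes, with 19, 18 and 18 of the 51 still lower at an unadjusted p under 0.05. No count over all genes was made at that p with a library left out. Calls in the lower direction were 2 without si-NC library 2, 5 without si-Snhg18 library 1 and 18 without si-Snhg18 library 2. In the same fits 158 of 14840, 319 of 14798 and 3282 of 14832 genes were called in either direction, so that the 18 stand beside a larger share of all genes.

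**Figure D1:**
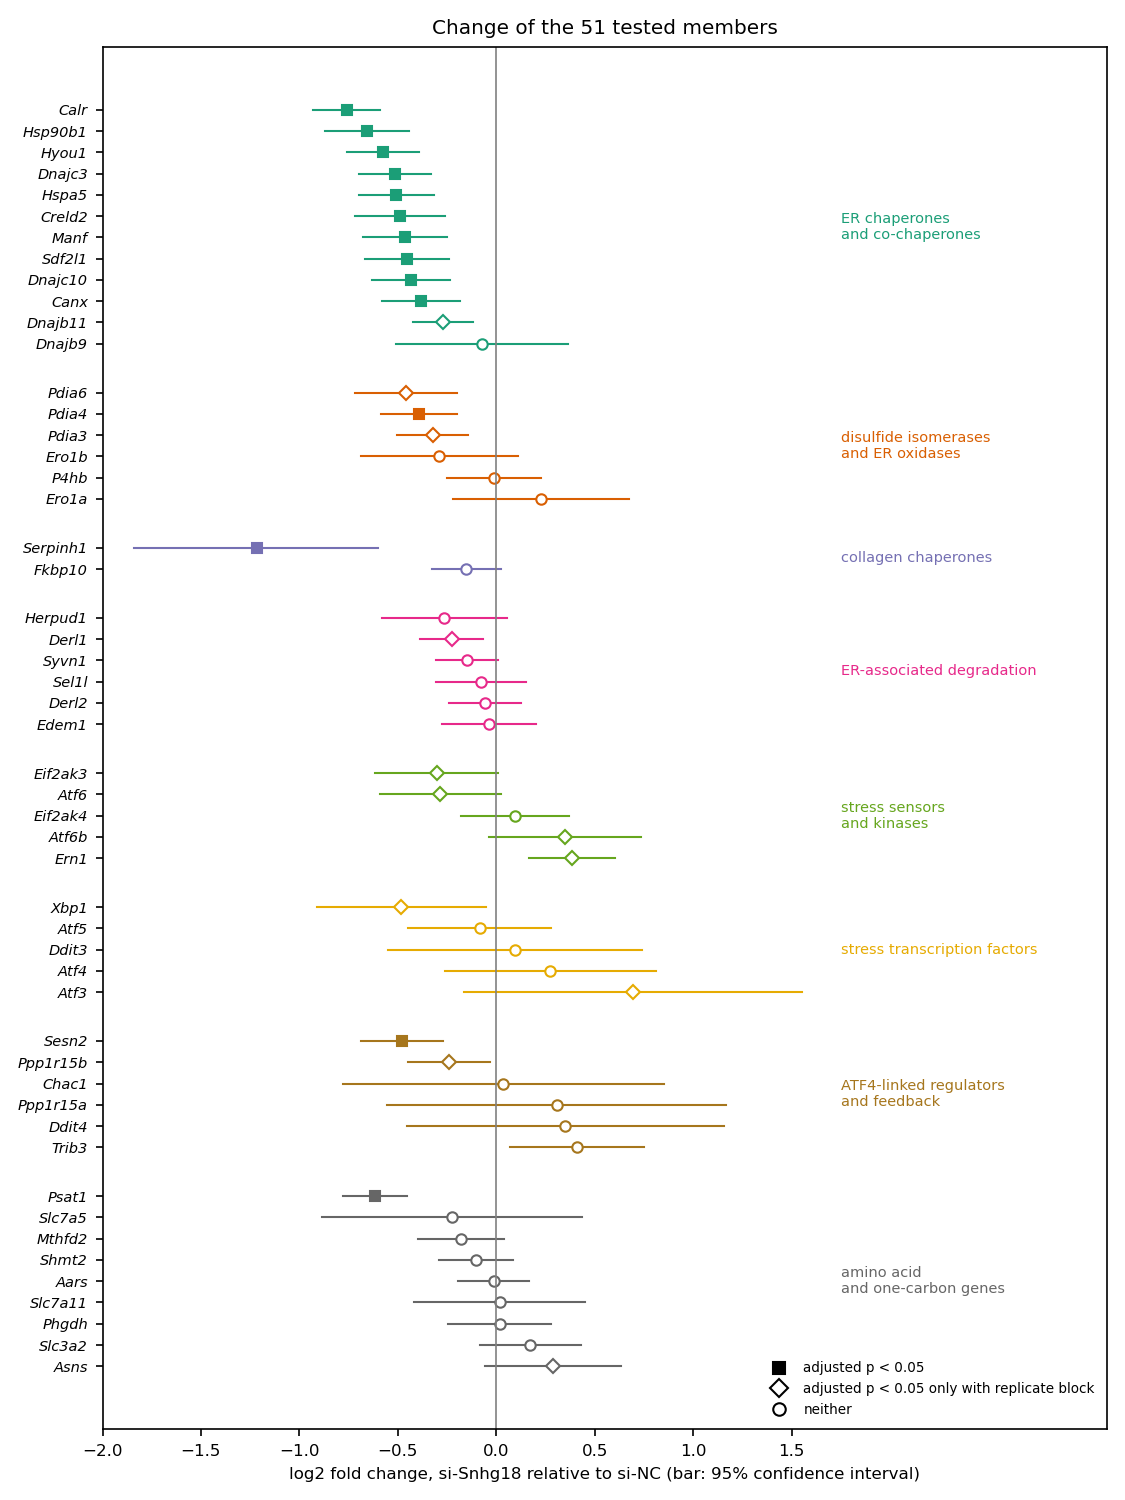
Log2 fold change of each tested gene in si-Snhg18 relative to si-NC (horizontal axis), with its 95% confidence interval as a bar, the genes grouped by role. *Serpinh1* lies furthest left at -1.22, the ER chaperones between -0.76 and -0.07, the isomerases and oxidases left of 0 apart from *Ero1a* at 0.23, and the sensors and ATF4-linked genes lie on both sides of 0.

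Among the 12 ER chaperones and co-chaperones, 10 fell and 0 rose, with a median log2 fold change of -0.48 and a range of -0.76 to -0.07. *Calr*, which encodes the lectin chaperone calreticulin of the ER lumen, was at 1605, 1473 and 1608 CPM in si-NC and at 966, 916 and 886 CPM in si-Snhg18. The groups were far apart, and *Calr* fell by 0.76 on the log2 scale (standard error 0.071, edgeR adjusted p = 0.00743), to 0.591 of its si-NC level. *Hsp90b1*, which encodes GRP94, was at 1348, 1520 and 1348 CPM in si-NC and at 882, 968 and 825 CPM in si-Snhg18, again without overlap (log2 fold change -0.66, standard error 0.089, edgeR adjusted p = 0.0143). *Hspa5*, which encodes BiP, the Hsp70 of the ER and the usual marker of the unfolded protein response, is annotated at chr2:34771970-34777547 on the plus strand. It was at 954, 1027 and 921 CPM in si-NC and at 704, 708 and 629 CPM in si-Snhg18. Every si-Snhg18 library was thus under every si-NC library, with a fold of 0.703 (log2 fold change -0.51, standard error 0.079, edgeR adjusted p = 0.0201).

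*Canx* encodes calnexin, the membrane-bound partner of calreticulin. It was at 825, 794 and 817 CPM in si-NC and at 688, 593 and 587 CPM in si-Snhg18, a smaller fall than that of *Calr* in value (log2 fold change -0.38, standard error 0.082, edgeR adjusted p = 0.0427), though the difference between the 2 genes was not tested. *Hyou1* encodes GRP170, which exchanges the nucleotide of BiP. Its level was 252, 256 and 262 CPM in si-NC and 185, 174 and 158 CPM in si-Snhg18 (log2 fold change -0.58, standard error 0.077, edgeR adjusted p = 0.0137). The si-NC libraries were close together for both genes, and the groups did not overlap.

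The J-domain proteins are the co-chaperones that hand substrates to BiP. *Dnajc3*, which encodes p58IPK, was at 178, 203 and 185 CPM in si-NC and at 136, 135 and 125 CPM in si-Snhg18 (log2 fold change -0.51, standard error 0.076, edgeR adjusted p = 0.0177). *Dnajc10*, which encodes the disulfide reductase ERdj5, was at 244, 266 and 249 CPM in si-NC and at 180, 205 and 177 CPM in si-Snhg18 (log2 fold change -0.43, standard error 0.083, edgeR adjusted p = 0.0330). Both fell, with no overlap between the groups. *Dnajb11*, which encodes ERdj3, was also lower in every si-Snhg18 library, at 116, 107 and 109 CPM beside 135, 129 and 135 CPM, but missed the threshold (log2 fold change -0.27, edgeR adjusted p = 0.0540) and passed it with the replicate term (adjusted p = 0.0124). *Dnajb9*, which encodes ERdj4, had overlapping groups, from 66.4 to 76.6 CPM in si-NC and from 52.3 to 86.9 CPM in si-Snhg18 (log2 fold change -0.07, edgeR adjusted p = 0.833). Its interval of -0.51 to 0.36 includes falls as large as that of *Hspa5*.

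*Sdf2l1*, *Manf* and *Creld2*, further genes of the lumen, fell by similar amounts. *Sdf2l1*, whose product works with J-domain proteins, was at 30.2, 32.3 and 28.5 CPM in si-NC and at 21.4, 23.0 and 22.1 CPM in si-Snhg18 (log2 fold change -0.45, standard error 0.089, edgeR adjusted p = 0.0347). *Manf*, which encodes a BiP-binding protein that can be secreted, was at 142, 150 and 133 CPM and then at 101, 113 and 94.4 CPM (log2 fold change -0.46, standard error 0.089, edgeR adjusted p = 0.0330). *Creld2*, an ER stress-inducible gene of the lumen, was at 52.02, 55.6 and 48.3 CPM and then at 34.3, 40.3 and 36.7 CPM (log2 fold change -0.49, standard error 0.095, edgeR adjusted p = 0.0347). In each of these the highest si-Snhg18 library was under the lowest si-NC library. *Sdf2l1* missed the threshold when no filter on low counts was used (adjusted p = 0.0589), and *Creld2* when library totals replaced the composition factors (adjusted p = 0.05004).

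**Figure D2:**
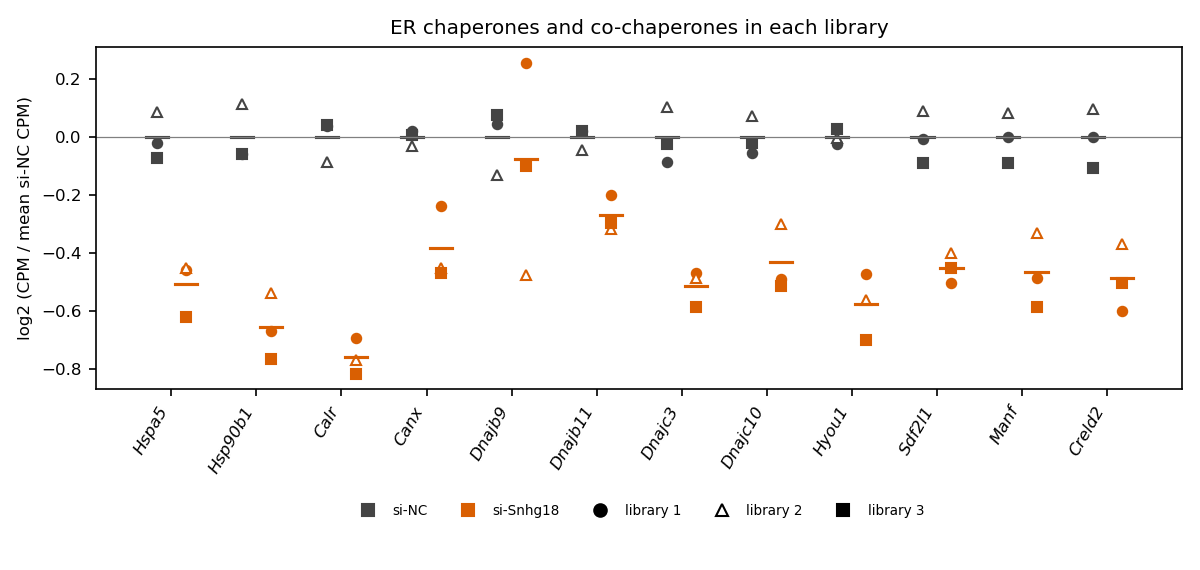
CPM of each ER chaperone and co-chaperone in each library, as log2 of its ratio to the mean of the 3 si-NC libraries (vertical axis), with si-NC in grey, si-Snhg18 in orange, a marker shape per library number and a bar at the log2 of the group mean. The orange points lie under the grey ones for every gene except *Dnajb9*.

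Disulfide bond formation was less uniform. Of the 6 isomerases and oxidases, 1 fell and 0 rose, with 3 lower at an unadjusted p under 0.05, 3 by DESeq2, 2 by limma-voom and 3 with the replicate term. *Pdia4*, which encodes the isomerase ERp72, was at 331, 362 and 327 CPM in si-NC and at 246, 280 and 250 CPM in si-Snhg18 (log2 fold change -0.39, standard error 0.081, edgeR adjusted p = 0.0389). With library totals in place of composition factors it missed the threshold (adjusted p = 0.0572). *Pdia3*, which encodes ERp57, the isomerase that works with calnexin and calreticulin, was at 1221, 1332 and 1228 CPM and then at 1007, 1069 and 945 CPM (log2 fold change -0.32, edgeR adjusted p = 0.0538, and 0.00518 with the replicate term). *Pdia6*, which encodes the isomerase P5, was at 437, 489 and 438 CPM and then at 304, 380 and 308 CPM (log2 fold change -0.46, edgeR adjusted p = 0.0540, and 0.00214 with the replicate term). The groups of all 3 isomerases were separate, with every si-Snhg18 library lower.

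*P4hb* stood apart from these. It encodes protein disulfide isomerase itself, which is also the beta subunit of collagen prolyl 4-hydroxylase, and per kilobase its si-NC level was 619 ± 24.3 RPKM (CPM per kilobase of exon, SD, n = 3), beside 542 RPKM for *Calr* and 402 RPKM for *Pdia3*. These levels rest on the summed exons of each gene, and with the deposited, shorter exon length of *Calr* its level was above that of *P4hb*. Its CPM was 1785, 1695 and 1832 in si-NC and 1962, 1542 and 1758 in si-Snhg18, so that the si-Snhg18 group spanned the si-NC group on both sides. The log2 fold change was -0.01 with an interval of -0.25 to 0.23 (edgeR adjusted p = 0.951). *Ero1a*, which encodes the oxidase that recharges protein disulfide isomerase and is induced by hypoxia, was at 396, 349 and 417 CPM in si-NC and at 553, 332 and 474 CPM in si-Snhg18. Libraries 1 and 3 were high and library 2 was low in the si-Snhg18 group, and the groups overlapped (log2 fold change 0.23, edgeR adjusted p = 0.497). Its relative *Ero1b* was far scarcer, between 4.85 and 6.49 CPM in all 6 libraries.

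The 2 collagen chaperones went separate ways in size. *Serpinh1*, which encodes HSP47, the chaperone dedicated to folded procollagen, had the largest fall of the 51 tested genes. It was at 787, 1069 and 753 CPM in si-NC and at 275, 516 and 330 CPM in si-Snhg18, and both libraries numbered 2 were the highest of their group. The groups did not overlap, and the level was 0.430 of that in si-NC (log2 fold change -1.22, 95% confidence interval -1.84 to -0.60, edgeR adjusted p = 0.0420). The spread within the groups was wide, and the call was lost with library totals in place of composition factors (adjusted p = 0.0506). *Fkbp10*, which encodes the collagen prolyl isomerase FKBP65, was at 244, 253 and 248 CPM and then at 207, 239 and 225 CPM, lower in every si-Snhg18 library but not called (log2 fold change -0.15, edgeR adjusted p = 0.260). *Col1a1*, a collagen client of both chaperones and one of the fibroblast markers above, had a mean of 1977 CPM in si-NC and 1302 CPM in si-Snhg18 and was called lower with the replicate term and not in the same fit without it.

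ER-associated degradation, which returns misfolded chains to the proteasome, had 0 of its 6 tested genes called in either direction (edgeR, with 1 lower at an unadjusted p under 0.05, 0 by DESeq2 or limma-voom, and 1 lower with the replicate term). *Derl1*, which encodes a membrane protein of the retrotranslocation channel, was the gene with the replicate-term call, at 141, 139 and 144 CPM in si-NC and 127, 114 and 121 CPM in si-Snhg18 (log2 fold change -0.23, edgeR adjusted p = 0.0941, and 0.0262 with the replicate term). The other genes had log2 fold changes from -0.27 in *Herpud1*, an adaptor of the degradation complex, to -0.04 in *Edem1*, a lectin-like mannosidase. *Sel1l* and *Syvn1*, which encode the adaptor and the ubiquitin ligase HRD1 of the central complex, were at -0.08 and -0.15 (edgeR adjusted p = 0.663 and 0.223). *Derl3* had 9, 5 and 7 reads in the si-NC libraries and 0, 0 and 1 in the si-Snhg18 libraries, too few for a test.

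As a share of all counted reads, the 12 chaperone genes took 0.580%, 0.602% and 0.574% in si-NC and 0.399%, 0.414% and 0.375% in si-Snhg18, so that the groups were far apart. The isomerases and oxidases took 0.420 ± 0.00602% and 0.381 ± 0.0136%, and the collagen chaperones 0.112 ± 0.0189% and 0.0601 ± 0.0157% (mean ± SD, n = 3). The 25 genes of stress signalling and the ATF4 branch together took 0.205 ± 0.00266% in si-NC and 0.2 ± 0.0117% in si-Snhg18, with overlapping libraries. For the 52 genes together the share went from 1.39 ± 0.0418% to 1.10 ± 0.0321%. These shares are sums over genes of unequal level and are dominated by the most abundant ones.

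**Figure D3:**
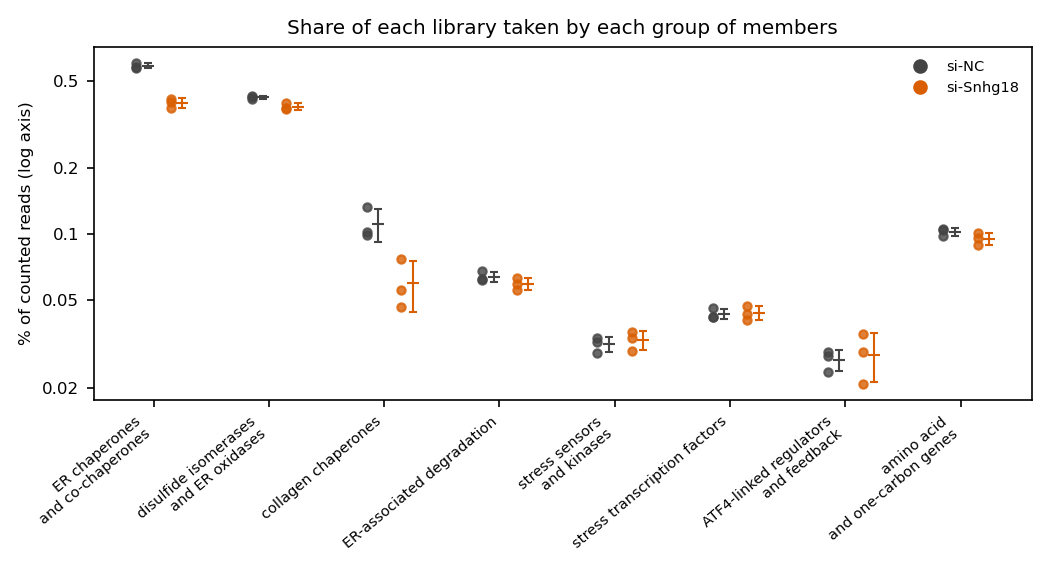
Percent of counted reads taken by each group of genes in each library (log vertical axis), si-NC in grey and si-Snhg18 in orange, with the group mean ± SD beside the points (n = 3). The chaperones, the isomerases and oxidases, and the collagen chaperones lie lower in all 3 si-Snhg18 libraries, and the 4 stress and ATF4-linked groups overlap.

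Of the 5 sensors and kinases, 0 were called by edgeR (1 higher at an unadjusted p under 0.05) or limma-voom, and with the replicate term 2 rose and 2 fell. Of all tested genes, 24.9% had an unadjusted p under 0.05 and 27.2% were called with the replicate term. DESeq2 called 1 of them, *Ern1*, higher. *Ern1* encodes IRE1 alpha, the kinase and nuclease that splices the *Xbp1* transcript. It was at 48.5, 52.2 and 49.1 CPM in si-NC and at 72.6, 61.5 and 61.4 CPM in si-Snhg18, so that every si-Snhg18 library was higher (log2 fold change 0.38, standard error 0.092, edgeR adjusted p = 0.0566, and 0.0149 with the replicate term). It also passed with DESeq2 (adjusted p = 0.0220) and with library totals (adjusted p = 0.0414).

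*Atf6* encodes the sensor that is cleaved in the Golgi to release a transcription factor. It was at 103, 90.9 and 107 CPM in si-NC and at 93.5, 68.6 and 84.8 CPM in si-Snhg18 (log2 fold change -0.28, edgeR adjusted p = 0.233, and 0.0208 with the replicate term). *Eif2ak3*, which encodes PERK, was at 48.5, 44.2 and 56.1 CPM and then at 45.3, 35.2 and 40 CPM (log2 fold change -0.30, edgeR adjusted p = 0.212, and 0.0441 with the replicate term). In both genes the library numbered 2 was the lowest of its group and the groups overlapped, while each si-Snhg18 library was under the si-NC library of the same number. *Atf6b*, the relative of *Atf6*, moved the other way in value, from 77.9, 57.7 and 80.5 CPM to 102, 77.1 and 96.0 CPM (log2 fold change 0.35, edgeR adjusted p = 0.243, and 0.00699 with the replicate term). *Eif2ak4*, which encodes GCN2, the kinase that senses uncharged tRNA, had a log2 fold change of 0.10 (edgeR adjusted p = 0.650).

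Of the 5 transcription factors, 0 were called by edgeR (1 lower at an unadjusted p under 0.05), DESeq2 or limma-voom, with 1 lower and 1 higher once the replicate term was included. *Xbp1*, the target of IRE1 alpha, was at 90.5, 116 and 93.6 CPM in si-NC and at 56.8, 88.3 and 69.7 CPM in si-Snhg18. Library 2 was the highest of each group, and the groups did not overlap (log2 fold change -0.48, standard error 0.18, edgeR adjusted p = 0.160, and 0.0035 with the replicate term). Gene counts do not tell the spliced from the unspliced form. *Atf4*, the central factor of the integrated stress response, was at 179, 157 and 184 CPM in si-NC and at 280, 147 and 201 CPM in si-Snhg18 (log2 fold change 0.27, standard error 0.22, edgeR adjusted p = 0.491). Libraries 1 and 3 of the si-Snhg18 group were above all of si-NC and library 2 was the lowest of all 6, so that the groups overlapped. Without si-Snhg18 library 2 the log2 fold change was 0.47 (edgeR adjusted p = 0.0656). Its interval ran from -0.26 to 0.81, and ATF4 is controlled mainly in translation, which these counts do not measure.

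*Ddit3*, which encodes CHOP, the factor tied to cell death under lasting ER stress, was scarce, at 9.41, 14.8 and 10.2 CPM in si-NC and 11.2, 16.3 and 9.15 CPM in si-Snhg18. The groups overlapped (log2 fold change 0.09, interval -0.55 to 0.74, edgeR adjusted p = 0.860), and the sign turned when si-NC library 1 or si-Snhg18 library 2 was left out (-0.03 and -0.17). *Atf3*, a stress-induced factor of the same family, was scarcer still, at 3.41, 2.08 and 3.43 CPM in si-NC and 6.21, 2.81 and 5.43 CPM in si-Snhg18. Libraries 1 and 3 of the si-Snhg18 group were higher than all of si-NC, and library 2 was not (log2 fold change 0.69, standard error 0.36, edgeR adjusted p = 0.287, and 0.0419 with the replicate term). *Atf5* had a log2 fold change of -0.09 (edgeR adjusted p = 0.770).

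**Figure D4:**
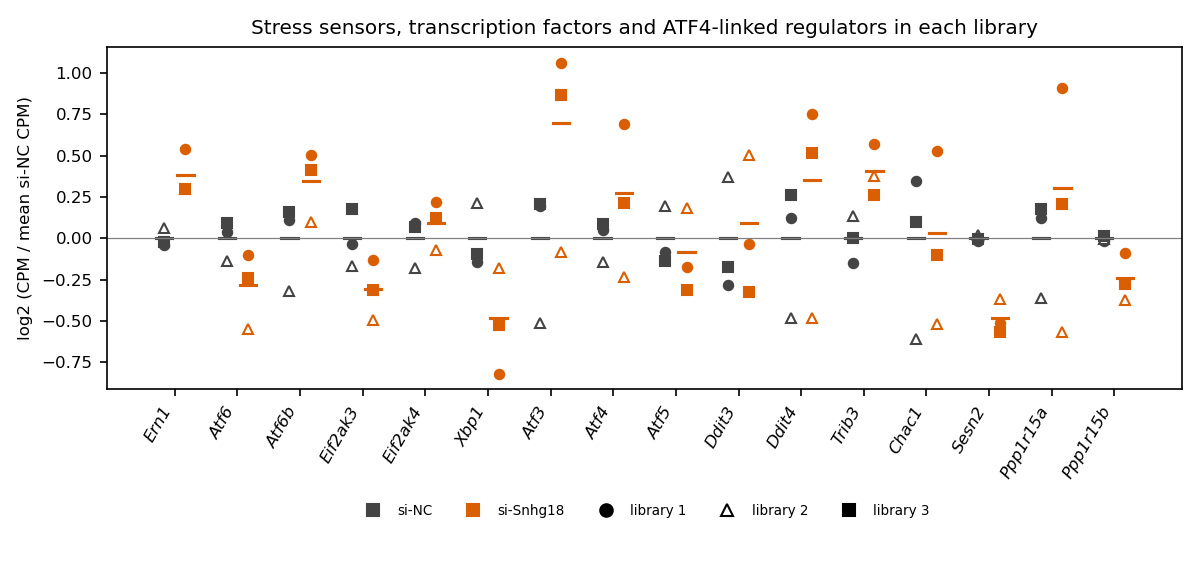
CPM of sensors, transcription factors and ATF4-linked genes in each library, as log2 of its ratio to the mean of the 3 si-NC libraries (vertical axis), with si-NC in grey, si-Snhg18 in orange, a marker shape per library number and a bar at the log2 of the group mean. Most pairs of groups overlap. *Ern1* and *Trib3* lie higher in all 3 si-Snhg18 libraries, and *Xbp1*, *Sesn2* and *Ppp1r15b* lie lower in all 3. Open triangles mark library 2.

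Among the 6 ATF4-linked regulators, 1 fell and 0 rose (2 lower and 1 higher at an unadjusted p under 0.05, 1 lower by DESeq2 and by limma-voom, and 2 lower with the replicate term). *Sesn2*, which encodes sestrin 2, a leucine sensor that restrains mTORC1, was at 34.4, 35.2 and 34.6 CPM in si-NC and at 24.3, 27.0 and 23.5 CPM in si-Snhg18. The si-NC libraries were nearly equal and all si-Snhg18 libraries lay lower (log2 fold change -0.48, standard error 0.086, edgeR adjusted p = 0.0284). *Trib3*, a pseudokinase induced by ATF4 and CHOP, was at 7.94, 9.68 and 8.81 CPM and then at 13.1, 11.4 and 10.6 CPM. Its groups did not overlap, with si-Snhg18 higher, and it missed the threshold in both fits (log2 fold change 0.41, standard error 0.14, edgeR adjusted p = 0.141, and 0.0732 with the replicate term). *Chac1*, which encodes an enzyme that degrades glutathione, was at 12.4, 6.41 and 10.5 CPM and then at 14.1, 6.81 and 9.10 CPM (log2 fold change 0.03, interval -0.78 to 0.85, edgeR adjusted p = 0.963). Its sign turned without si-NC library 2 (-0.20) or si-Snhg18 library 1 (-0.30).

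The eIF2 phosphatase subunits close the feedback loop. *Ppp1r15a*, which encodes the inducible subunit GADD34, was at 49.7, 35.5 and 51.5 CPM and then at 85.5, 30.8 and 52.7 CPM, with library 1 high and library 2 low in the si-Snhg18 group (log2 fold change 0.31, edgeR adjusted p = 0.644). *Ppp1r15b*, which encodes the constitutive subunit CReP, was at 85.4, 86.1 and 87.1 CPM and then at 81.0, 66.5 and 71.2 CPM, lower in every si-Snhg18 library (log2 fold change -0.24, edgeR adjusted p = 0.150, and 0.0449 with the replicate term). *Ddit4*, an mTORC1 inhibitor, had a log2 fold change of 0.35 with an interval of -0.45 to 1.16 (edgeR adjusted p = 0.559).

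Of the 9 genes of amino acid supply and one-carbon metabolism, 1 fell and 0 rose (1 lower and 0 higher at an unadjusted p under 0.05, by DESeq2 and by limma-voom), and with the replicate term 1 fell and 1 rose. *Psat1*, which encodes the aminotransferase in the middle of serine synthesis, was at 248, 235 and 234 CPM in si-NC and at 164, 155 and 149 CPM in si-Snhg18. The libraries were tight within each group and far apart between them, at a fold of 0.653 (log2 fold change -0.62, standard error 0.067, edgeR adjusted p = 0.00889). *Phgdh*, the first enzyme of the same pathway, had overlapping groups, from 112 to 135 CPM and from 111 to 138 CPM (log2 fold change 0.02, edgeR adjusted p = 0.945). *Asns*, which encodes asparagine synthetase and is a standard readout of ATF4, was at 48.0, 59.2 and 44.3 CPM and then at 58.3, 70.9 and 55.6 CPM. The groups overlapped, but each si-Snhg18 library was above the si-NC library of its number (log2 fold change 0.29, standard error 0.14, edgeR adjusted p = 0.274, and 0.0153 with the replicate term). The other 6 genes ranged from -0.23 in *Slc7a5*, the large neutral amino acid transporter, to 0.17 in *Slc3a2*, its heavy chain. Between them lay the mitochondrial folate enzymes *Mthfd2* (-0.18) and *Shmt2* (-0.10), the alanyl-tRNA synthetase gene *Aars* (-0.01) and the cystine transporter gene *Slc7a11* (0.02).

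The promoter elements shown above were compared with these changes. An ERSE was found in 10 of the 45 genes with a window, 22.2%, and in 39 of all 32851 promoters, 0.119%. The element is known from chaperone genes, so that its larger share among them is not a result of these data. The former share counts genes over any of 49 windows and the latter counts single promoters. The 10 genes were *Calr*, *Canx*, *Creld2*, *Derl3*, *Dnajc3*, *Ero1b*, *Hsp90b1*, *Hspa5*, *Pdia6* and *Syvn1*. Of the 9 that were tested, 6 fell and 0 rose, with a median log2 fold change of -0.49, and the 9 ran from -0.76 to -0.15. With the replicate term 7 of the 9 fell and 0 rose, where 13.6% of all tested genes fell and 13.6% rose. All 9 are genes of folding or degradation, and whether an ERSE goes with a fall was not tested. *Ero1b* and *Syvn1* were not called in either fit, though every si-Snhg18 library was below every si-NC library for both. *Pdia6* missed the threshold in the fit without the replicate term. Of the 9 tested genes outside the 52 that have an ERSE, 1 fell, with a median of -0.16. *Serpinh1*, *Psat1*, *Pdia4*, *Sdf2l1*, *Dnajc10* and *Sesn2* fell and have no ERSE in their windows, and *Hyou1* and *Manf* had no entry. The ERSE-II element ATTGGNCCACG was in 0.0365% of all promoters and in *Dnajb11* and *Herpud1*, and the element TGACGTGG, bound by XBP1 and ATF6, was in 0.676% and in 0 of the 45.

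CARE was in 7 of the 45 genes, 15.6%, and in 3.97% of all promoters, and the same limits hold for these shares. The 7, *Aars*, *Asns*, *Atf3*, *Chac1*, *Herpud1*, *Slc7a11* and *Trib3*, included 0 called genes without the replicate term and 2 that rose with it, *Asns* and *Atf3*. Their median log2 fold change was 0.03, and they ran from -0.27 to 0.69. Of 284 tested genes with a CARE outside the 52, 7 fell and 6 rose, where 3.71% of all tested genes fell and 3.65% rose. These motifs were chosen from textbook knowledge after the gene values had been seen, and an element outside the window or with another spelling would be missed.

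**Figure D5:**
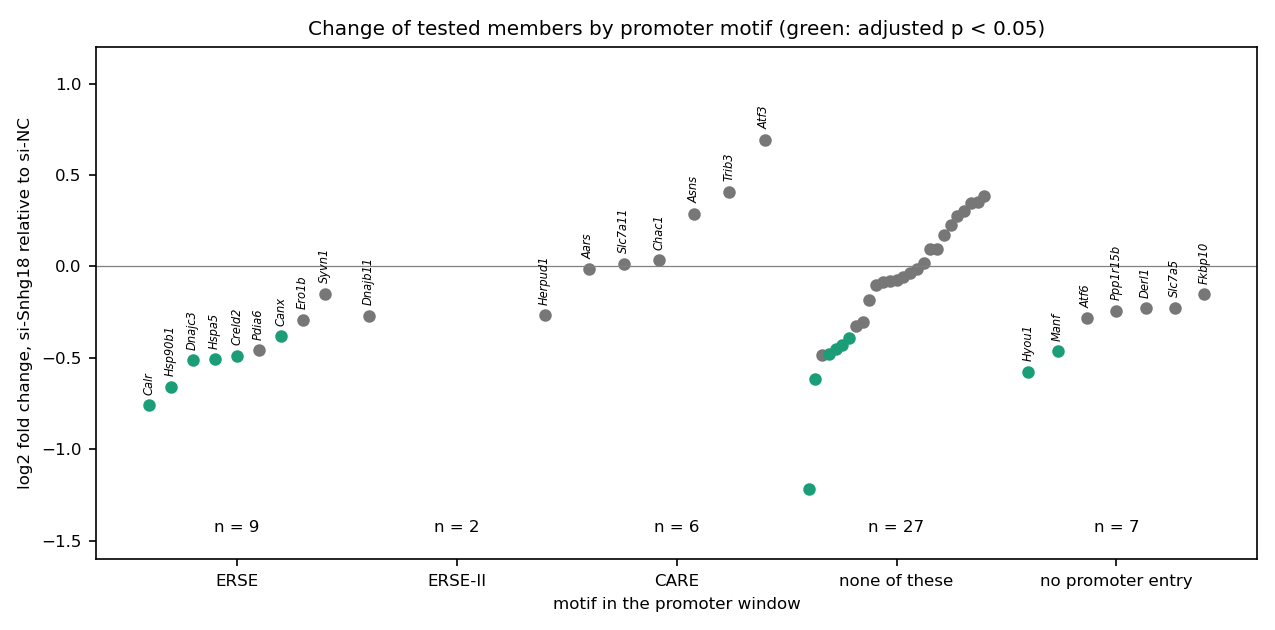
Log2 fold change of the 51 tested genes (vertical axis) by the element in their promoter window (horizontal axis), with genes of adjusted p under 0.05 in green. The 9 ERSE genes all lie under 0, the CARE genes spread from -0.01 to 0.69, and *Herpud1*, which has both ERSE-II and CARE, is drawn under ERSE-II.

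The rest of the same pathways was counted list by list. Beside these counts, 7.36% of all tested genes were called by edgeR, 24.9% had an unadjusted p under 0.05, and 27.2% were called with the replicate term. Of 31 other genes of ER folding, glycosylation and translocation, 6 fell and 0 rose (median log2 fold change -0.14, 6 lower by DESeq2 and by limma-voom, and 9 lower and 2 higher with the replicate term). *Ssr3*, a subunit of the translocon-associated complex, was at 538, 543 and 536 CPM in si-NC and at 313, 318 and 300 CPM in si-Snhg18 (log2 fold change -0.80, edgeR adjusted p = 0.00545). *Kdelr2*, which encodes a receptor that returns KDEL-bearing chaperones from the Golgi, was at 159, 163 and 160 CPM and then at 88.3, 104 and 91.5 CPM (log2 fold change -0.76, edgeR adjusted p = 0.0081). The log2 fold changes of *Ssr3* and *Kdelr2* were near that of *Calr*, and their groups did not overlap. The related receptor genes *Kdelr1* and *Kdelr3* were not lower in value. Their log2 fold changes were 0.06 (edgeR adjusted p = 0.735) and 0.20 (edgeR adjusted p = 0.102, and 0.0429 with the replicate term). *Sec61a1* and *Sec61b*, subunits of the channel through which new chains enter the ER, had log2 fold changes of -0.53 and -0.46 (edgeR adjusted p = 0.0137 and 0.0344).

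Of 13 other degradation genes, 0 were called by edgeR (1 lower at an unadjusted p under 0.05), DESeq2 or limma-voom, and with the replicate term 1 fell, *Selenos*, and 1 rose. Of 20 other stress signalling genes, 0 were called by edgeR (3 lower and 1 higher at an unadjusted p under 0.05) or limma-voom and 1 lower by DESeq2, and with the replicate term 3 fell and 2 rose. *Mbtps1* encodes the site-1 protease that cleaves ATF6. It was at 154, 183 and 155 CPM in si-NC and at 86.1, 136 and 97.2 CPM in si-Snhg18, with no overlap (log2 fold change -0.62, edgeR adjusted p = 0.0917, and 0.00234 with the replicate term). *Nupr1*, a stress-induced gene downstream of ATF4, was at 97.6, 52.3 and 127 CPM and then at 656, 82.1 and 319 CPM. Libraries 1 and 3 of the si-Snhg18 group were far above the rest while library 2 lay within the si-NC range (log2 fold change 1.94, edgeR adjusted p = 0.161, and 1.59 with adjusted p = 0.0147 when the replicate term was included). *Wfs1*, which encodes wolframin of the ER membrane, and *Nfe2l2*, which encodes the antioxidant factor NRF2, fell by 0.41 and 0.38 on the log2 scale with the replicate term (edgeR adjusted p = 0.00467 and 0.00361) and were not called without it. Of 20 tested other ATF4-linked genes, 1 fell and 0 rose (4 lower and 1 higher at an unadjusted p under 0.05, 3 lower by DESeq2 and 1 by limma-voom), and with the replicate term 5 fell and 2 rose. The gene that fell in the fit without that term was *Aldh1l2*, a mitochondrial folate enzyme, at 41.8, 45.9 and 42.6 CPM and then at 32.6, 26.4 and 25.4 CPM (log2 fold change -0.62, edgeR adjusted p = 0.0305). Passing with the replicate term were *Aldh18a1*, an enzyme of proline synthesis (log2 fold change -0.44, edgeR adjusted p = 0.00438), the alanine aminotransferase gene *Gpt2* (-0.74, adjusted p = 0.0129) and the stress cytokine gene *Gdf15* (-0.96, adjusted p = 0.0377).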

How the data were processed

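RNA of 3 si-NC and 3 si-Snhg18 libraries of mPASMCs was sequenced, per the study's methods, from a stranded poly(A) library kit. The deposited values are whole read counts per gene on GRCm38.p6. The submitters' processing notes name HISAT2 and mm10, while the counting tool, its strand setting and its filters are not given in the sources used here, so that genes sharing reads with a pseudogene or an overlapping gene are uncertain. From these counts, genes passing filterByExpr (minimum count 10) were fitted with edgeR's quasi-likelihood test (edgeR 4.0.16, R 4.3.3, TMM factors, two-sided, Benjamini-Hochberg over 14531 genes), with group as the only term. CPM are counts scaled to library size with these factors, and RPKM used the union exon length of GENCODE M21, which counts rare exons too. Rows of other samples numbered 0, as did rows naming no gene. A second *Ddit3* row without reads was not used. The smallest two-sided exact permutation p for 3 against 3 is 0.1, so that no such test is given.

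The replicate numbers come from the labels, which do not say what a number shares. Deviations from the group means correlated at 0.41, 0.742 and 0.359 between libraries of the same number, each over 0.1, and at -0.661 to 0.497 between libraries of different numbers. The value 0.497, of si-NC library 3 with si-Snhg18 library 1, was above the 0.41 and 0.359 of the libraries numbered 1 and 3. Whether the numbers pair the libraries is thus not known. The fit with the number as a term is an alternative, given where it changes a call.

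The genes and lists were chosen with earlier results of these data known. Among the 52, library values are given for every gene with an adjusted p under 0.05, for the 3 largest rises and falls, and for *Hspa5*, *Ern1*, *Atf6*, *Eif2ak3*, *Xbp1*, *Atf4*, *Ddit3*, *Trib3*, *Chac1*, *Asns* and *Serpinh1*. Library values of other genes, and the promoter motifs, were chosen after values were seen. Genes outside the 52 were named where called in either fit, up to 4 per list by smallest p, except 1 gene that is not reported here. Alternatives were other count filters, size factors and thresholds, DESeq2 1.42.0, limma-voom (limma 3.58.1), the replicate term and leaving out libraries, and the scripts were tested on simulated data.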

Additional observations from a re-analysis of the deposited data

How the results depend on the processing

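The 14 genes that fell without the replicate term were lower in all 196 values over 14 alternative fits, between -1.53 and -0.34 on the log2 scale. These genes were picked from the same libraries, and their groups did not overlap. Their signs could therefore hardly turn in such fits, and the kept signs are not further support. The number that fell was 22 with the replicate block, 4 when a 1.5-fold change was also required, and 0 to 18 when 1 library was left out. The values without each library stand in the report, and all-gene calls under the same omissions ran from 0 to 3282. A further setting, chosen after the data were seen, left out both libraries numbered 2, and then 20 fell and 6 rose, where 4020 of all 14587 genes were called. The number that rose was 1 with library totals in place of composition factors, 1 with DESeq2, 4 with the replicate block, 1 at an adjusted p under 0.10, and 0 to 3 with 1 library left out (3 without si-Snhg18 library 2, *Ero1a*, *Ern1* and *Atf3*). Under the other filters, RLE factors and limma-voom 14 to 16 fell and 0 rose, while 12 fell with library totals, 17 with DESeq2 and 18 at an adjusted p under 0.10. Where an arm kept 2 libraries its spread was pooled with that of the other group. *Snhg18* kept its direction, from -1.14 to -1.06 with 1 library left out, with adjusted p from 0.00474 to 0.0703, and missed the threshold without si-NC library 1, si-NC library 3 or si-Snhg18 library 3. *Ddit3* turned to -0.03 without si-NC library 1 and to -0.17 without si-Snhg18 library 2 (range -0.17 to 0.32), and *Chac1* turned to -0.20 without si-NC library 2 and to -0.30 without si-Snhg18 library 1 (range -0.30 to 0.25). Among the other pathway lists the replicate block gave 2 higher genes of ER folding and translocation, 1 lower and 1 higher of degradation, 3 lower and 2 higher of stress signalling, 5 lower and 2 higher of the ATF4-linked genes, 3 lower and 2 higher of the aminoacyl-tRNA synthetases, and 1 higher of the cytosolic and mitochondrial chaperones. Beyond the genes given with the replicate term in the report, the block changed no call among the 51. The cause of these shifts was not tested. With 3 libraries a group, changes as uncertain as those of *Atf3* and *Nupr1* did not pass the test when all 6 libraries were fitted without the replicate term.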

Other observations

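Chaperones outside the ER were also measured. Here too, 24.9% of all tested genes had an unadjusted p under 0.05, and 27.2% were called with the replicate term. Of 17 cytosolic and mitochondrial chaperone genes, 3 fell and 0 rose (edgeR, with 4 lower and 1 higher at an unadjusted p under 0.05, 3 lower and 1 higher by DESeq2, and 3 lower by limma-voom), with a median log2 fold change of -0.08. *Hspa9*, which encodes the mitochondrial Hsp70 mortalin, was at 571, 492 and 563 CPM in si-NC and at 403, 320 and 347 CPM in si-Snhg18 (log2 fold change -0.60, edgeR adjusted p = 0.0282). *Hspd1*, which encodes the mitochondrial chaperonin Hsp60, was at 369, 395 and 348 CPM and then at 232, 289 and 222 CPM (log2 fold change -0.58, edgeR adjusted p = 0.0368). Both groups were separate for these genes and for the small heat shock protein gene *Hspb1* (log2 fold change -0.50, edgeR adjusted p = 0.0265). *Bag3*, a co-chaperone of Hsp70, was at 145, 131 and 143 CPM and then at 226, 165 and 196 CPM, higher in every si-Snhg18 library (log2 fold change 0.49, edgeR adjusted p = 0.0649, and 0.00366 with the replicate term). Of 19 aminoacyl-tRNA synthetase genes beside *Aars*, 1 fell and 0 rose (3 lower and 1 higher at an unadjusted p under 0.05, 1 lower by DESeq2 and by limma-voom), with a median of -0.01. It was *Farsb*, a subunit of phenylalanyl-tRNA synthetase, at 52.5, 49.7 and 50.8 CPM and then at 34.8, 42.1 and 36.3 CPM (log2 fold change -0.43, edgeR adjusted p = 0.0447). With the replicate term *Yars* rose (log2 fold change 0.24, edgeR adjusted p = 0.0225) and *Rars* and *Dars* fell (-0.23 and -0.30, adjusted p = 0.0278 and 0.0126).

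The libraries numbered 2 stood at the same end of both groups for many genes. Both were the lowest of their group for 10 of the 25 tested genes of stress signalling and the ATF4 branch, 40%, where 29.8% of all tested genes were. The 10 were *Atf6*, *Atf6b*, *Eif2ak3*, *Eif2ak4*, *Atf3*, *Atf4*, *Ddit4*, *Chac1*, *Ppp1r15a* and *Slc3a2*. For 13 of the 26 tested folding and degradation genes, 50%, both libraries numbered 2 were the highest of their group, where 32.2% of all tested genes were. The labels do not say what a library number shares, and no test was made of these shares.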
